A study of Mus musculus with 8 samples.

Results

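The immediate early genes are 10 genes of the count table, Fos, Fosb, Jun, Junb, Egr1, Egr2, Egr3, Ier2, Ier3 and Zfp36, out of 53465 genes counted. They were selected on their names as textbook immediate early genes, and chosen from earlier results in which their levels in these libraries, with parental 1 apart from parental 2 and parental 3, were already known. That difference between parental libraries is therefore described here and not tested. Transcripts were measured by RNA sequencing of polyA RNA in Ba/F3, an immortalised mouse cell line on a C3H background that is labelled pro-B and grows on interleukin-3 (IL-3). One group was the parental line with wild-type U2AF35 (n = 3 libraries, numbered 1 to 3). The other was the line after transformation with U2AF35(S34F), a mutant of the splicing factor subunit that reads the AG at the end of introns (n = 5, numbered 4 to 8). The vector and promoter, the presence of IL-3 at harvest, and whether cultures or clones were separate are not given in the sources available here. If they were not separate, the p-values measure the spread between libraries, which may be technical.

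Immediate early genes are switched on within minutes of a growth factor, cytokine or stress signal without new protein synthesis, and their transcripts are then removed quickly. In cells that depend on IL-3, the cytokine signals through JAK2 and STAT5 and through RAS and the MAP kinases, and the latter act on serum response factor (SRF) and its ETS partners at the promoters of these genes. Many of them encode transcription factors: FOS and JUN proteins pair to form AP-1, and EGR proteins are zinc finger factors. ZFP36 binds AU-rich elements in the 3' untranslated region (UTR) of short-lived transcripts and speeds their decay.

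RefSeq promoter windows (build GRCm38.p6) were supplied for 7 of the 10 genes, and 4 are shown because they belong to 3 genes that differed most between the parental libraries (Fos, Egr2 and Zfp36) and to Jun, which differed little. Each is the 250 bases before a transcription start, 5′ to 3′ on the gene's strand, at chr12:85473640-85473889 (+) for Fos, chr10:67537620-67537869 (+) for Egr2, chr7:28379229-28379478 (-) for Zfp36 and chr4:95052223-95052472 (-) for Jun. Capitals mark matches on either strand to the CArG box, the element SRF binds, to CGTCA, which is one arm of the cAMP response element, or to the AP-1 element TGACTCA.
Fos: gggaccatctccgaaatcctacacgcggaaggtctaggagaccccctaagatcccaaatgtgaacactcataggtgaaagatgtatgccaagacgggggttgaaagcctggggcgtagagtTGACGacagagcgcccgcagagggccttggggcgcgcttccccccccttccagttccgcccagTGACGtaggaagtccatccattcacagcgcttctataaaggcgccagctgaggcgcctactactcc
Egr2: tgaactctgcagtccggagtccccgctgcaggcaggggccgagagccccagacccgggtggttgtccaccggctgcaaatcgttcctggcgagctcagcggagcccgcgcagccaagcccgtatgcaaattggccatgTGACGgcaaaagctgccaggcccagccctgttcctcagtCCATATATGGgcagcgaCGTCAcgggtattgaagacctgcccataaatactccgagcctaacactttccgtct
Zfp36: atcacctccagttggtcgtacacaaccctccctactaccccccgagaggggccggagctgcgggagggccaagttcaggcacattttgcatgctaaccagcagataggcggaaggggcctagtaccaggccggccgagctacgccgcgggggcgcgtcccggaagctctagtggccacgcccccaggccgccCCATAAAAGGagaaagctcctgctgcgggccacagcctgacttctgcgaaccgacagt
Jun: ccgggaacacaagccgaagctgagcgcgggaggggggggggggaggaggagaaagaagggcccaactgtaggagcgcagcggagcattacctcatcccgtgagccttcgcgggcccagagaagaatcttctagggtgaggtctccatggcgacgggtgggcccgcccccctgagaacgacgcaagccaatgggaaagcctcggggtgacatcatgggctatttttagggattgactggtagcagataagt

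A CArG box stood in the windows of Zfp36, from 58 bases before the start, and of Egr2, from 73 bases before the start shown, as well as in 3 of the other 4 Egr2 windows. The Egr2 windows beginning at 67537619 and 67537680 overlap the one shown and hold the same box. Only the window beginning at 67537316 holds a separate one. Of all 32851 promoter windows of 300 bases in the table, 1.63% held a CArG box, 20.8% held CGTCA, 1.79% the whole element TGACGTCA, which contains CGTCA on either strand, and 5.20% TGACTCA. The Fos window held 2 matches to CGTCA and 0 to the CArG box, the Egr2 window 2 to CGTCA, and the Jun window 0 to any of the 4. Fosb and Junb had 1 match to CGTCA each, and Ier3 had 0. A match is a run of letters and not evidence of binding, and these windows are short.

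Short gene structure was shared by the 10 genes. Their median length was 3852.5 bases (GENCODE vM21, GRCm38) against 21931.5 for the 11652 protein-coding genes tested, and their longest coding transcripts had a median of 2 exons against 9. Jun, Junb and Ier2 had a single exon. The heptamer TATTTAT, the core of AU-rich elements that ZFP36 binds, occurred in the 3' UTR of 5 of the 10 (Fos, Fosb, Jun, Ier3 and Zfp36) and of 27.9% of the protein-coding genes tested. It occurred at least 2 times in Fos (2), Zfp36 (3) and Ier3 (4), against 9.61% of those genes. The median 3' UTR length of the 10, 1010.5 bases, was close to that of the background, 1048.5 bases. The first site of each of these 3 genes is shown in 21 bases, with the heptamer in capitals.
Fos: ttcaattTATTTATtaagatg
Zfp36: ggcccttTATTTATgacgact
Ier3: taattaaTATTTATgtattta

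Library totals lay between 36122062 counts (transformed 7) and 50305573 counts (parental 1). Over all 17733 genes tested, parental 1 lay nearer to parental 2 and 3 than to any transformed library, with root mean square differences in log2 CPM of 0.39 to each, against 0.56 for the nearest transformed library, transformed 6. Parental 1 and parental 3 were sequenced in lane 6 and parental 2 in lane 7. U2af1 was at 85.3, 98.2 and 91.6 CPM (counts scaled to a common library size with TMM factors) in parental 1 to 3 and at 157, 144, 128, 92.0 and 132 CPM in transformed 4 to 8, and a gene count does not separate the S34F copy. Of 12 fixed pro-B markers, Ptprc (300.5 to 501 CPM), Cd79a (43.2 to 59.6) and Cd79b (10.8 to 22.0) were counted in all libraries, while Rag1 and Il7r were at 0 counts and Pax5, Ebf1, Igll1, Dntt and Blnk did not exceed 0.0440 CPM, and Vpreb1 did not exceed 0.153 CPM. The pro-B label thus rests here on few of its markers. Summed levels of 6 T cell markers (0.180 to 3.49 CPM) and 7 fibroblast markers (0.0198 to 0.424 CPM) were near 0, with Cd8a, Trbc2, Col1a2, Col3a1, Pdgfra and Lum at 0 counts. Other lists were not near 0 in the parental libraries. There 8 mast cell and basophil markers summed to 714 to 871 CPM, of which Gata2 gave 633 to 769. The 8 granulocyte and macrophage markers summed to 152 to 176 CPM and the 5 erythroid markers to 51.3 to 67.6 CPM.

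All 10 genes had counts and passed the low-count filter. The level per kilobase of exon, averaged over the 8 libraries, was highest for Ier2 at 133 CPM per kb, then Ier3 at 92.4 and Junb at 69.7. Zfp36 followed at 9.82, Fos at 6.86, Jun at 4.67 and Egr2 at 2.80 CPM per kb. Egr3 (0.446), Fosb (0.246) and Egr1 (0.0554) were lowest. Junb lay above Zfp36, Egr2 above Egr3, and Fosb above Egr1 in 8 of 8 libraries, whereas Fos lay above Jun in 3 of 8 and Egr3 above Fosb in 5 of 8. Counting error matters most for Egr1, which had 15, 22 and 11 counts in parental 1 to 3 and 7, 6, 18, 11 and 2 counts in transformed 4 to 8.

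Of the AP-1 subunits, Fos (ENSMUSG00000021250, chromosome 12, 85473890 to 85477273) stood at 5.81 CPM in parental 1, 31.9 in parental 2 and 40.4 in parental 3. In transformed 4 to 8 it stood at 3.88, 7.24, 9.13, 21.1 and 9.73 CPM. Parental 2 and 3 lay above all 5 transformed libraries, while parental 1 lay within the transformed range, so the groups overlapped. Parental 2 was 5.49-fold and parental 3 6.97-fold above parental 1. The group levels were 26.0 ± 18.0 CPM (SD, n = 3) and 10.2 ± 6.48 CPM (SD, n = 5), with a log2 fold change, transformed over parental, of -1.35 (SE 0.64, edgeR adjusted p = 0.256). Without parental 1 it was -1.82 (SE 0.50, edgeR adjusted p = 0.149), and without parental 3 it was -0.88 (adjusted p = 0.632), so the gene missed the threshold of 0.05 in each. In bulk RNA a lower level in fewer cells and a lower level in every cell cannot be told apart.

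Junb (ENSMUSG00000052837, chromosome 8, 84974484 to 84978718), a JUN protein that often restrains growth, was at 88.8, 222 and 210.1 CPM in parental 1, 2 and 3. The transformed libraries had 87.5, 120.0, 160.3, 239 and 155 CPM in the order 4 to 8. The low parental library matched the lowest transformed one, and transformed 7 lay above every parental library, so the ranges overlapped at both ends. Its log2 fold change was -0.19 (SE 0.36, edgeR adjusted p = 0.802), and -0.50 (SE 0.32, adjusted p = 0.478) without parental 1. The annotated Junb gene overlaps Prdx2 on the other strand, and without a stated strand setting reads in the overlap cannot be assigned. Prdx2 held 47054 counts over all libraries, and Junb 4331 to 11125 counts in each.

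Jun (ENSMUSG00000052684, chromosome 4, 95049034 to 95052222), the founding AP-1 subunit, had 11.4, 15.5 and 12.5 CPM in parental 1 to 3 and 11.5, 13.0, 18.8, 18.0 and 18.5 CPM in transformed 4 to 8. Transformed 6, 7 and 8 lay above all parental libraries and transformed 4 and 5 among them. Its log2 fold change was 0.28 (SE 0.20, edgeR adjusted p = 0.443). An antisense gene, Junos, lies over Jun and held 42 counts over all libraries. Fosb (ENSMUSG00000003545, chromosome 7, 19302696 to 19310051), a FOS relative, was near 1 to 2 CPM throughout, from 0.913 in transformed 5 to 2.04 in parental 3, with parental 1 at 0.977. Its log2 fold change was -0.01 (SE 0.30, edgeR adjusted p = 0.988), took either sign when single libraries were left out, and shows no difference beyond its spread.

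Egr2 was the EGR gene with the most counts. Egr2 (ENSMUSG00000037868, chromosome 10, 67535475 to 67542188) had 3.26 CPM in parental 1, 19.2 in parental 2 and 26.7 in parental 3, and 4.59, 3.37, 5.44, 7.91 and 5.73 CPM in transformed 4 to 8. Parental 1 was below all 5 transformed libraries, and parental 2 and 3 were above all of them. Parental 2 and 3 were 5.88-fold and 8.17-fold above parental 1. Group levels were 16.4 ± 12.0 CPM (SD, n = 3) and 5.41 ± 1.67 CPM (SD, n = 5). With all libraries the log2 fold change was -1.60 (SE 0.54), and Egr2 passed by DESeq2 (adjusted p = 0.0212) but not by edgeR (adjusted p = 0.136). Without parental 1 it was -2.08 (SE 0.28) and Egr2 passed in edgeR as lower (adjusted p = 0.0370), whereas without parental 3 it was -1.05 (adjusted p = 0.475). Over all alternatives its adjusted p ran from 0.0212 to 0.9996, the latter within lane 7.

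Egr3 (ENSMUSG00000033730, chromosome 14, 70077203 to 70082614), which acts in lymphocyte activation, went the other way with 1.78, 0.959 and 1.43 CPM in parental 1 to 3 and 3.07, 1.17, 1.67, 4.43 and 1.23 CPM in transformed 4 to 8. Transformed 4 and 7 were the high libraries, and the other 3 lay among the parental ones. Its log2 fold change was 0.73 (SE 0.47, edgeR adjusted p = 0.400), and -0.41 within lane 6. Egr1 (ENSMUSG00000038418, chromosome 18, 34859823 to 34864984), the best known of the family, stayed between 0.0423 CPM in transformed 8 and 0.440 CPM in parental 2, with parental 1 at 0.293. Its log2 fold change of -0.71 (SE 0.55, edgeR adjusted p = 0.484) rests on at most 22 counts a library. It was -1.12 with lane in the model (edgeR adjusted p = 0.234), -1.67 within lane 6 (0.0735) and -0.64 within lane 7 (0.9996), and it missed the threshold in each.

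Per kilobase of exon, the IER transcripts had the highest mean levels of the 10. Ier2 (ENSMUSG00000053560, chromosome 8, 84661331 to 84662852), a nuclear protein induced by growth factors, had 114, 383 and 387 CPM in parental 1, 2 and 3 and 82.2, 129.6, 159.7, 209 and 151 CPM in transformed 4 to 8. Parental 2 and 3 were almost equal and above every transformed library, and parental 1 lay in the lower part of the transformed range. Parental 2 and 3 were 3.37-fold and 3.40-fold above parental 1. The log2 fold change was -1.01 (SE 0.40, edgeR adjusted p = 0.188), -1.39 (SE 0.28, adjusted p = 0.0841) without parental 1 and -0.76 (adjusted p = 0.517) without parental 3.

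Ier3 (ENSMUSG00000003541, chromosome 17, 35821684 to 35822923), a regulator of cell survival, had 73.8, 127 and 128 CPM in parental 1 to 3 and 36.5, 72.1, 115, 140.4 and 144 CPM in transformed 4 to 8. The transformed libraries spread 3.94-fold, with transformed 4 and 5 below and transformed 7 and 8 above all parental libraries. Its log2 fold change was -0.11 (SE 0.42, edgeR adjusted p = 0.906). It was 0.10 without transformed 4.

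Zfp36 (ENSMUSG00000044786, chromosome 7, 28376784 to 28380253), the RNA decay factor, had 17.5, 62.2 and 74.0 CPM in parental 1, 2 and 3 and 12.7, 21.0, 23.3, 27.4 and 34.6 CPM in transformed 4 to 8. Parental 2 and 3 were above all transformed libraries and 3.56-fold and 4.24-fold above parental 1, which lay within the transformed range. Group levels were 51.2 ± 29.8 CPM (SD, n = 3) and 23.8 ± 8.08 CPM (SD, n = 5), with a log2 fold change of -1.11 (SE 0.44, edgeR adjusted p = 0.191), -1.51 (SE 0.31, adjusted p = 0.0848) without parental 1 and -0.74 (adjusted p = 0.549) without parental 3. An antisense gene over Zfp36, Gm44710, held 18 counts in all.

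**Figure D1:**
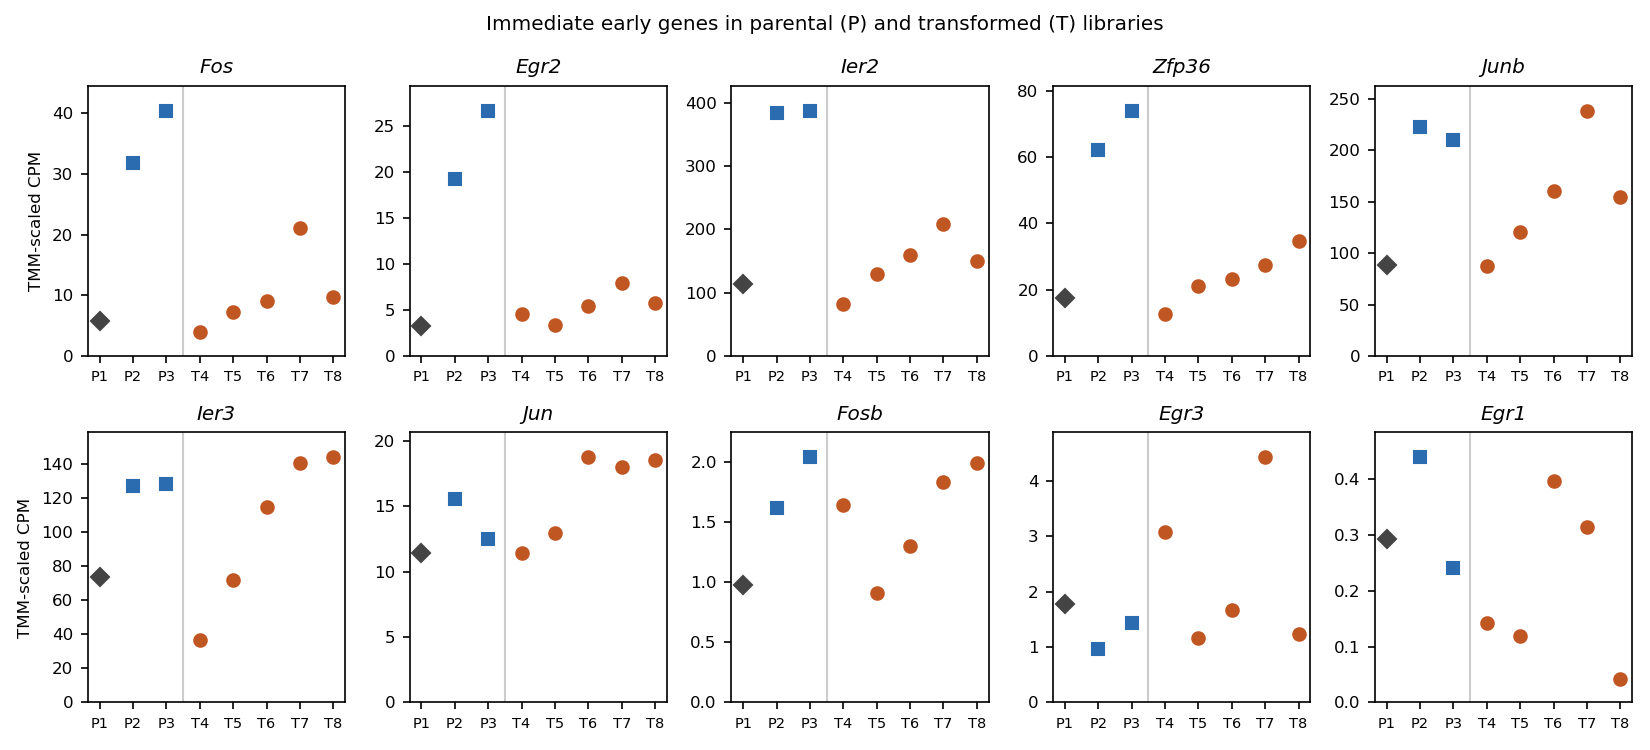
TMM-scaled CPM (vertical axes, linear, from 0) of the 10 genes in each library, with a diamond for parental 1 (P1), squares for parental 2 and 3 (P2, P3) and circles for transformed 4 to 8 (T4 to T8); each point is 1 library. In Fos, Egr2, Ier2 and Zfp36 the squares lie above all circles while the diamond lies within or below the range of the circles, and Jun shows no such gap.

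In the comparison of transformed with parental cells, 0 of the 10 genes passed in edgeR, where 3.01% of all tested genes did, 2.10% as lower and 0.908% as higher. At an unadjusted p under 0.05 there were 3 of the 10 (Egr2, Ier2 and Zfp36), against 22.2% of all genes. DESeq2 called 1 (Egr2, lower), against 10.4% of genes, and limma-voom 0, against 3.24%. These counts are small and near the shares over all genes. The log2 fold change was negative in 8 of the 10 and its median was -0.45, against 0.02 over all genes tested. Without parental 1 the median was -0.64, against 0.02 over all genes, and 1 of the 10 passed as lower (Egr2), where 0.354% of genes did. Because parental 1 was singled out by these same genes, values without it are a description of parental 2 and 3 and not independent support. All 5 transformed libraries lay below all 3 parental ones in 0 of the 10 genes, against 9.69% of genes. They lay below parental 2 and 3 in 4 of the 10 (Fos, Egr2, Ier2 and Zfp36), against 14.0%. Within lane 6 (parental 1 and 3, transformed 5 and 8) the log2 fold change was -1.43 in Fos, -1.70 in Egr2, -0.82 in Ier2 and -0.70 in Zfp36. Within lane 7 (parental 2, transformed 4, 6 and 7) it was -1.50, -1.69, -1.36 and -1.56 in the same order, with the lone parental library taken to vary like the others. In neither lane did any of the 10 pass in edgeR. At an unadjusted p under 0.05 there was 1 in lane 6 (Egr1), against 35.6% of genes, and there were 3 in lane 7 (Egr2, Ier2 and Zfp36), against 2.72%. The only parental library in lane 7 is parental 2, which is among those already known to be high in these genes.

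**Figure D2:**
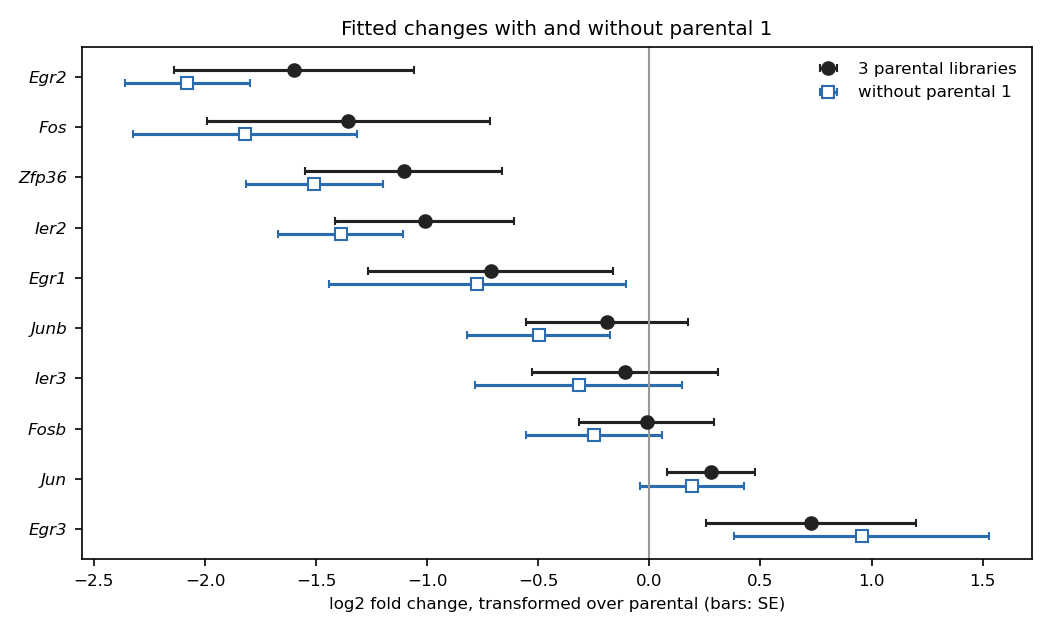
Log2 fold change, transformed over parental (horizontal axis), fitted with 3 parental libraries (circles) and without parental 1 (open squares), with bars of 1 SE. Egr2 moves from -1.60 to -2.08 and Fos from -1.35 to -1.82, while Jun and Egr3 lie above 0 in both fits.

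Within the parental group, parental 1 was at least 2-fold below both other libraries in 5 of the 10 genes (Fos, Egr2, Ier2, Zfp36 and Junb), where this held for 0.524% of all tested genes. It was at least 2-fold above both in 0 of the 10, against 0.570% of genes. These counts describe the difference by which the set was singled out. On the log2 scale parental 1 minus the mean of parental 2 and 3 was -2.78 in Egr2, -2.62 in Fos, -1.96 in Zfp36, -1.76 in Ier2 and -1.28 in Junb. It was -0.87 in Fosb, -0.79 in Ier3, -0.29 in Jun and -0.14 in Egr1, and 0.59 in Egr3. The summed level of the 10 genes was 317 CPM in parental 1, 864 in parental 2 and 883 in parental 3. In transformed 4 to 8 the sum was 244, 369, 495, 669 and 521 CPM.

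**Figure D3:**
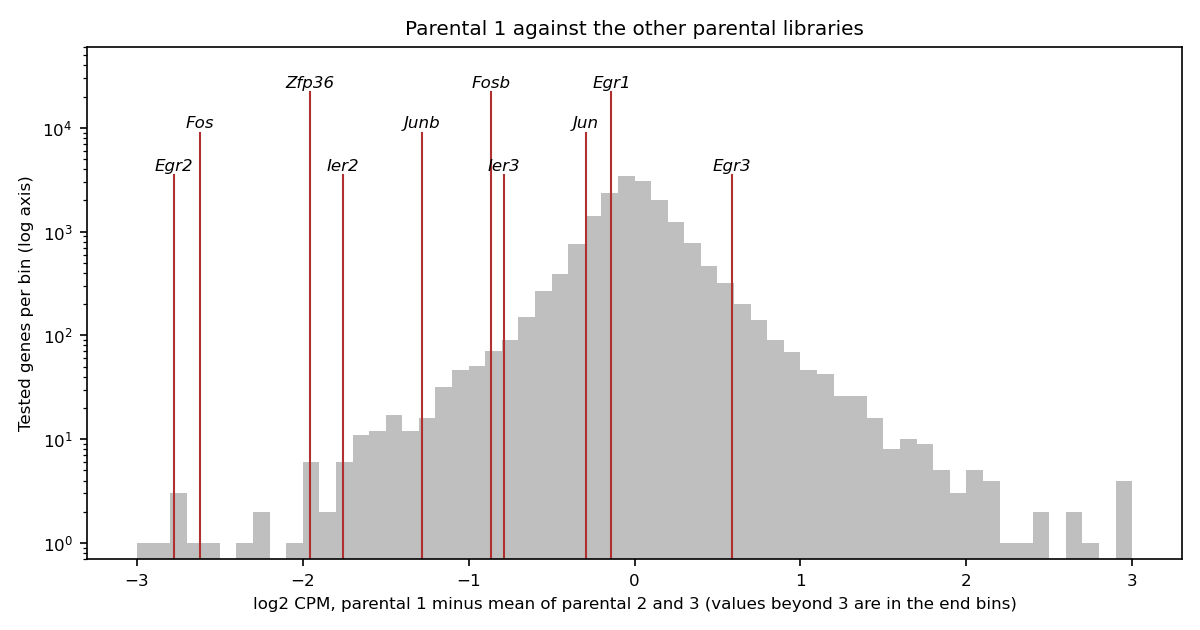
Distribution over 17733 tested genes of log2 CPM in parental 1 minus the mean of parental 2 and 3 (horizontal axis; grey bars give genes per bin on a log axis), with a line at each of the 10 genes. Egr2 (-2.78) and Fos (-2.62) lie far in the lower tail, and Egr3 (0.59) lies to the right of 0.

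Il3, the gene of the cytokine on which the Ba/F3 parental line grows, differed between the same parental libraries. It had 2.01 CPM in parental 1 and 0 counts in parental 2 and 3, where 3 counts would be 0.0600 and 0.0658 CPM. In transformed 4 to 8 it had 2.10, 3.49, 5.79, 11.2 and 5.75 CPM. Libraries with Il3 counts were thus those with the lower levels of Fos, Egr2, Ier2 and Zfp36. These 4 genes are named because parental 2 and 3 lay above all other libraries in them. The match therefore follows from the choice and is not separate support. Only these 4 of the 10 genes had all 5 transformed libraries below parental 2 and 3. Of all genes tested 14.0% did, whatever their level in parental 1. The rest of the 10 did not divide the libraries this way. Transformed 7 lay above every parental library in Junb (239 CPM against at most 222) and Ier3 (140 CPM against at most 128). In Egr3, 0 of the 5 transformed libraries lay below both parental 2 and 3. The edgeR adjusted p of Il3, transformed against parental, was 0.205. It was 0.0454 without parental 1, a fit whose parental libraries are both at 0 counts. Among the transformed libraries the order was not the reverse, since transformed 7 had the highest Il3 and also the highest Fos, Egr2 and Ier2 of the 5. The part of Il3 in these levels was not tested.

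Among the 5 transformed libraries, transformed 4 was lowest in Fos, Jun, Junb, Ier2, Ier3 and Zfp36, and transformed 7 highest in Fos, Junb, Egr2, Egr3 and Ier2. The ratio of the highest to the lowest transformed library was 9.37 in Egr1, where counts were few, 5.43 in Fos, 3.94 in Ier3 and 3.78 in Egr3. It was 2.73 in Junb, 2.72 in Zfp36, 2.54 in Ier2, 2.35 in Egr2, 2.18 in Fosb and 1.64 in Jun. Transformed 4 also had the highest summed level of 8 mast cell and basophil markers, 1592 CPM against 439 to 647 CPM in the other transformed libraries and 714 to 871 CPM in parental ones, with Kit, Fcer1a and Prss34 at 0 counts. The 8 granulocyte and macrophage markers summed to 74.9 to 188 CPM in transformed and 152 to 176 CPM in parental libraries, and the 5 erythroid markers to 12.7 to 50.6 and 51.3 to 67.6 CPM. Heat shock genes, a list that includes genes responding to handling and stress, summed to 8411, 8604 and 8277 CPM in parental 1, 2 and 3. Hsp90ab1 alone gave 5404, 4979 and 5134 CPM of these sums. Hspa1a and Hspa1b did not exceed 0.180 and 0.220 CPM there, so the sums do not measure a stress response. Of the heat shock genes tested, 10 of 11 were lower in parental 1 than the mean of parental 2 and 3 (median difference -0.20 on the log2 scale). Over all genes tested 9135 of 17733 were lower, with a median of -0.01. The low side was also common in other lists, with 14 of 15 partners of EGR and ZFP36 proteins and 26 of 36 SRF and MAP kinase pathway genes. Of the 14 heat shock genes listed, 11 were tested and 0 passed in edgeR, DESeq2 or limma-voom. An unadjusted edgeR p under 0.05 was reached by 1, against 22.2% of all genes, and the median log2 fold change was 0.10. Within lane 6, 5 of 10 passed in edgeR as higher, against 9.60% of genes there. In transformed 7 the heat shock sum was lowest, 6515 CPM. The part of these differences between libraries in the levels of the immediate early genes was not tested.

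Similarity among the 10 was measured as the root mean square difference of log2 CPM over the 8 libraries, each gene centred on its own mean. Zfp36 and Ier2 were the closest pair at 0.23, followed by Junb and Ier3 at 0.33 and Junb and Ier2 at 0.38. Fos lay 0.41 from Ier2 and 0.44 from Egr2, and the most distant pair was Fos and Egr3 at 1.44. By the same measure, over 9098 genes whose average log2 CPM reached 3, those closest to Fos were Osm (0.39), which encodes the cytokine oncostatin M, and Socs1 (0.40), a feedback inhibitor of JAK kinases. Next were the linker histone gene Hist1h1c (0.54), Stom (0.57) and Btg2 (0.57). Osm had 55.0, 332 and 409.9 CPM in parental 1 to 3 and 74.1, 98.6, 128, 195 and 180.2 CPM in transformed 4 to 8. Parental 2 and 3 were 6.03-fold and 7.46-fold above parental 1 and above every transformed library. Socs1 had 8.11, 30.9 and 36.3 CPM and then 6.95, 10.2, 15.6, 16.7 and 11.7 CPM, the same arrangement. Osm and Socs1 were picked for closeness to Fos over these same libraries, so this arrangement follows from the choice.

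The genes closest to the mean profile of the 10 were Btg2 (0.16), an antiproliferative early gene, and Dusp1 (0.18), a phosphatase that switches off MAP kinases. Cebpd (0.27), Cox17 (0.27) and the CDK inhibitor Cdkn1a (0.28) followed. Btg2 had 20.1, 44.1 and 44.6 CPM in parental 1 to 3 and 14.2, 19.2, 21.1, 38.5 and 24.8 CPM in transformed 4 to 8, and Dusp1 24.9, 45.3 and 43.7 CPM and 16.3, 18.3, 25.6, 31.2 and 25.0 CPM. Both have a low parental 1, which follows from their choice by closeness to this profile and is not separate support. The genes closest to Egr1 (Arl14ep, Snx32, Uba7, Malat1 and Ceacam16, 0.53 to 0.56) are given for completeness, since the Egr1 profile rests on few counts.

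**Figure D4:**
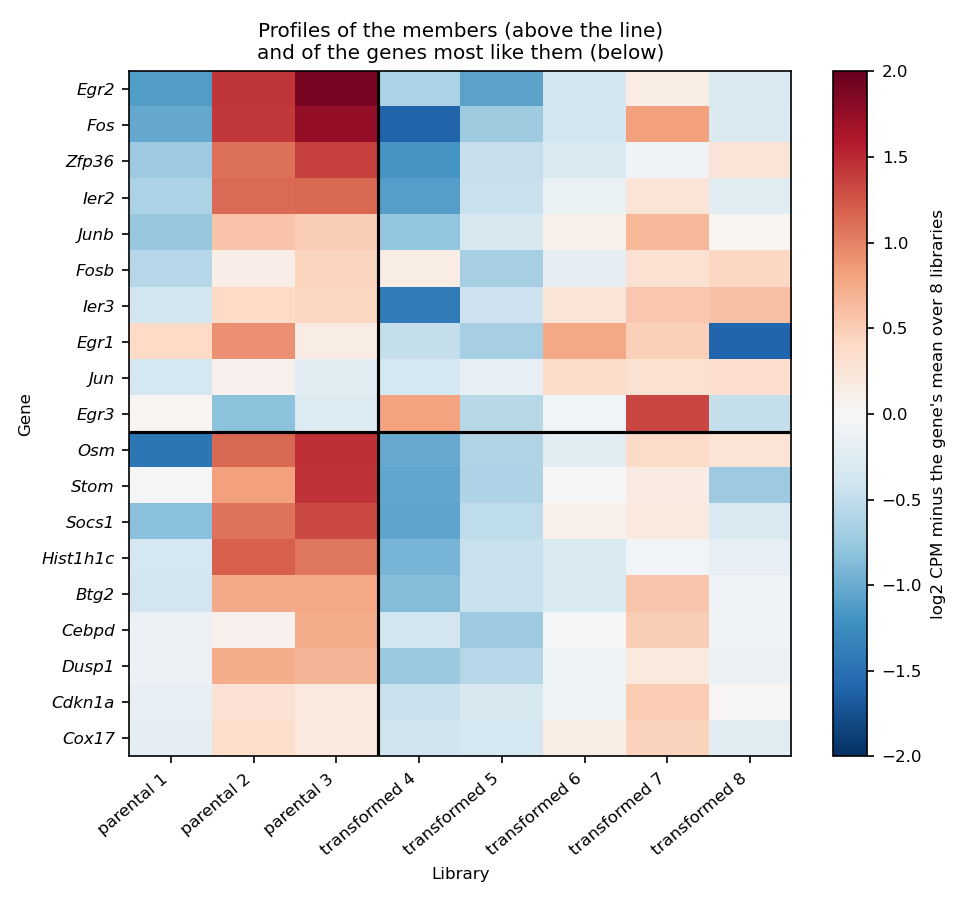
Log2 CPM minus the gene's mean over 8 libraries (colour scale, -2 to 2) for the 10 immediate early genes (above the horizontal line) and the 9 genes closest to Fos or to the mean profile (below it), by library; the vertical line parts parental from transformed. Fos, Egr2, Ier2 and Zfp36 share high values in parental 2 and 3 with Osm and Socs1, and transformed 4 is low in Fos, Ier3, Ier2 and Zfp36.

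Other immediate early genes were compared in the same way. Of 52 other immediate early genes listed, 34 were tested, 7 had 0 counts in every library, and parental 1 was at least 2-fold below both other parental libraries in 2 (Dusp2 and Btg2; 0.524% of all genes) and above both in 1 (Cxcl2, with at most 2.51 CPM in any library). The median of parental 1 minus parental 2 and 3 was -0.19 over these 34, of which 21 were lower in parental 1, -1.07 over the 10 and -0.01 over all genes, on the log2 scale. Dusp2, a nuclear MAP kinase phosphatase, had 6.80, 17.3 and 13.8 CPM in parental 1 to 3, Dusp5, which acts on ERK, 50.6, 91.1 and 107 CPM, and Csrnp1 23.1, 40.2 and 45.1 CPM. In the comparison of transformed with parental cells 0 of the 34 passed in edgeR, and 5 had an unadjusted edgeR p under 0.05. DESeq2 called 1 (Nfkbia, higher) and limma-voom 0. Over all genes the shares were 3.01%, 22.2%, 10.4% and 3.24% in the same order, so the list lay below each. The median log2 fold change of the 34 was 0.08. The 5 with the smallest p were Nfkbia, which encodes an inhibitor of NF-kB (0.54, edgeR adjusted p = 0.118), Dusp1 (-0.71, adjusted p = 0.143), Nfil3 (0.58, adjusted p = 0.146), Phlda1 (0.92, adjusted p = 0.193) and Ier5 (0.60, adjusted p = 0.198). Without transformed 4, 2 of the 34 passed as higher (Phlda1 and Ier5, edgeR adjusted p = 0.0420 and 0.0454), near the share of all genes that did, 6.25%.

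Upstream of these genes, 36 of 37 listed SRF and MAP kinase pathway genes were tested and 1 passed in edgeR, as lower, with 12 at an unadjusted p under 0.05 and a median log2 fold change of -0.03; DESeq2 called 3 and limma-voom 1, all lower. These calls are near or under the shares over all genes (3.01% in edgeR, 10.4% in DESeq2, 3.24% in limma-voom). The 12 of 36 at an unadjusted edgeR p under 0.05 are a larger share than the 22.2% of all genes. In parental 1 none of the 36 was 2-fold from both other parental libraries. The 1 gene was Rps6ka5, which encodes MSK1, a kinase that phosphorylates CREB and histone H3 at immediate early promoters. It fell from 36.6, 37.2 and 45.3 CPM to 28.3, 25.6, 29.6, 27.7 and 28.0 CPM, a log2 fold change of -0.51 (SE 0.10) with an edgeR adjusted p of 0.0375 and 5 of 5 transformed libraries below all parental ones. The related MSK2 gene Rps6ka4 had a log2 fold change of -0.59 (SE 0.14, edgeR adjusted p = 0.0565). With lane in the model Rps6ka5 was no longer called (edgeR adjusted p = 0.0834), nor was it within lane 7 (0.9996). It also missed it without parental 1 (0.0857), parental 2 (0.119) or parental 3 (0.205), and without transformed 5 (0.0892), transformed 6 (0.0870) or transformed 8 (0.0976).

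With all libraries, none of the listed partners of the encoded proteins was called in edgeR. Within lane 6, and also without transformed 4, edgeR called 1 AP-1 partner as lower and 1 EGR or ZFP36 partner as higher. Of all genes it called 1883 lower and 1682 higher of 17512 within lane 6. Without transformed 4 it called 1628 lower and 1100 higher of 17589, so the calls among the partners are near the shares over all genes. Of 17 AP-1 partners 12 were tested, with 0 passing by edgeR or limma-voom and a median log2 fold change of 0.26. An unadjusted edgeR p under 0.05 was reached by 2, against 22.2% of all genes. DESeq2 called Batf as higher and Atf2 as lower (adjusted p = 0.00680 and 0.0233), where it called 10.4% of all genes. Batf, a lymphoid AP-1 partner, had the largest value among the 3 with the smallest p (1.12, SE 0.33, edgeR adjusted p = 0.0957), then Atf2 (-0.46, adjusted p = 0.0834) and Fosl1 (-0.42, adjusted p = 0.250). Of 17 partners of EGR and ZFP36 proteins 15 were tested, with 0 passing by edgeR, DESeq2 or limma-voom and a median of 0.0036. Of these 1 had an unadjusted edgeR p under 0.05, against 22.2% of all genes. The corepressor gene Nab1 had 0.30 (SE 0.15, edgeR adjusted p = 0.268), and Elavl1, whose product binds AU-rich elements and stabilises transcripts, 0.28 (SE 0.11, adjusted p = 0.175).

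Neighbouring genes were examined for the same difference in parental 1. Of the tested genes starting within 500 kb, 24 lay around Fos, 6 around Egr2, 33 around Zfp36 and 41 around Ier2. Among these neighbours parental 1 was at least 2-fold below the other parental libraries in 0, 0, 0 and 1 genes, and the 1 was Junb, which lies near Ier2. The neighbours' median log2 fold change, transformed over parental, was 0.04 around Fos, 0.10 around Egr2 and 0.22 around Zfp36, each above the value of the gene itself. Around Ier2 and Junb it was -0.21 and -0.26, above the value of Ier2 (-1.01) but below that of Junb (-0.19). Medians over the whole chromosome were 0.04 for Fos, 0.02 for Egr2, 0.17 for Zfp36 and -0.09 for Ier2 and Junb. In edgeR 5 of 33 neighbours passed around Zfp36, 5 of 41 around Ier2 and 6 of 38 around Junb, against 3.01% of all genes, and 0 passed around Fos and Egr2. Ier2 and Junb share 5 of these neighbours, Calr among them.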

How the data were processed

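RNA from 3 parental and 5 transformed Ba/F3 libraries was analysed from a table of whole-number counts per gene as deposited by the authors, with no normalization; STAR 2.5.3a, featureCounts 1.5.3 and the build mm10 (GRCm38.p5) come from the submitters' processing notes. The annotation release and the strand and multimapping settings were not stated, so overlapping genes may share counts. The members and lists were chosen with earlier results of these data known. Genes were matched by identifier to GENCODE vM21 (53360 matched, 105 did not).

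Genes passing filterByExpr (17733 of 53465) were fitted on group with edgeR 4.0.16 (R 4.3.3), TMM factors and the quasi-likelihood test, and p-values were Benjamini-Hochberg adjusted over all of them; the common biological coefficient of variation was 0.23. The SE was taken as the absolute log2 fold change over the square root of F. The scripts were tested on simulated data. CPM used TMM factors, and log2 CPM a prior count of 2. Between 36122062 and 50305573 counts a library, 3 counts amounted to 0.0586 to 0.0857 CPM.

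Named genes were the 10, Il3, U2af1, the 5 other immediate early genes with the smallest p and the 5 with the largest difference in parental 1, the 3 of each other list with the smallest p, and the 5 closest in profile to Fos, Egr1 and the mean of the 10; others named in the text were chosen after their values were seen. Some genes that this rule or the marker lists include are not reported here. Alternatives were other scaling factors, DESeq2 1.42.0, limma-voom (limma 3.58.1), other filters, sequencing lane, leaving out each library, and other folds and prior counts for parental 1. Promoters came from RefSeq (GRCm38.p6) and 3' UTRs from the longest coding transcript. No column lay outside the 8 libraries.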

Additional observations from a re-analysis of the deposited data

Results flagged for a closer look

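Within the 5 transformed libraries 58 named or listed genes were checked for a single library far from the other 4, and 10 had one; chance gives about 1 in 20. None of the 10 immediate early genes was among them. Transformed 4 stood apart in 7: Dusp5 at 17.1 CPM (the others 75.3 to 93.2), Hspd1 at 519 CPM (747 to 814), Atf2 at 120.2 CPM (81.8 to 89.5), Cd79b at 22.0 CPM (10.8 to 13.1), Hdc at 174 CPM (16.7 to 37.6), Ms4a2 at 10.4 CPM (1.16 to 1.5) and Gata2 at 1269 CPM (360.0 to 541). Transformed 7 stood apart in Lck at 3.46 CPM (0.794 to 1.47) and Malat1 at 734 CPM (311 to 425). Transformed 5 stood apart in Hbb-bs at 5.74 CPM (0.0857 to 1.32).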

How the results depend on the processing

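Across the alternatives, 157 of 169 fold changes of the 10 genes kept their direction and side of the threshold, and 2, both of Egr2, passed only there (DESeq2 and without parental 1). The number of genes called higher was 161 and of genes called lower 372. It was 850 and 1001 with DESeq2, 15 and 79 with lane as a covariate, 1682 and 1883 in lane 6 alone, and 0 and 0 by edgeR in lane 7 alone, where 507 had an unadjusted p under 0.05. Leaving out 1 library gave 3 to 1100 higher and 21 to 1628 lower, highest without transformed 4. Of the 10 genes, 1 was lower with DESeq2, and 0 to 1 with a library left out. Within lane 6 the log2 fold change was -0.41 in Egr3, 0.11 in Ier3, 0.052 in Dusp2 and 0.12 in Dusp5, opposite to all libraries, and within lane 7 -0.075 in Hspe1 and 0.23 in Ceacam16. With a library left out it ran from -0.25 to 0.24 in Fosb, -0.50 to 0.036 in Junb, -0.32 to 0.10 in Ier3 and -0.47 to 0.029 in Dusp5. Parental 1 lay below both others in 340 genes at 1.5-fold and 23 at 3-fold, and above both in 406 and 19; of the 10, it lay below in 7 and 4. The causes were not tested. No paired analysis was possible because the groups share no replicate numbers. Egr1 is limited by depth.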

Other observations

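Some mast cell and granulocyte genes also differed between the parental libraries, which was seen after their values were known. Cpa3, a mast cell protease gene, had 25.8, 76.0 and 74.7 CPM in parental 1 to 3 and 136, 5.40, 79.6, 39.7 and 9.22 CPM in transformed 4 to 8. Mpo, the myeloperoxidase gene, had 6.28, 20.4 and 14.6 CPM and then 21.8, 2.0, 23.1, 1.51 and 3.43 CPM. Hdc, the gene of the enzyme that makes histamine, went the other way in parental 1, with 51.3, 22.9 and 18.0 CPM, and had 174, 16.7, 24.5, 37.6 and 28.4 CPM in transformed 4 to 8. Parental 1 was thus low in Cpa3 and Mpo and high in Hdc. These genes are not typical of their lists: of the 5 granulocyte and macrophage markers tested, 2 were lower in parental 1, with a median difference of 0.03 on the log2 scale, and Prtn3 (18.3, 17.4 and 18.4 CPM) and Fcgr3 (148, 111 and 127 CPM) did not share the low value. Of the 5 mast cell and basophil markers tested, 3 were lower in parental 1. All 3 spread more widely among the transformed libraries than among the parental ones, and transformed 4, the lowest of its group in Fos, Junb, Ier2 and Zfp36, was the highest in Cpa3 and Hdc.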
